A study of Mus musculus with 6 samples.

Results

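The 9 transcription factor genes that define the pancreatic β cell in mouse, Pdx1, Mafa, Nkx6-1, Nkx2-2, Neurod1, Isl1, Foxa2, Rfx6 and Pax6, were measured as mRNA in 6 clones of the MIN6 line. They were listed by symbol, with no threshold on their values but with earlier results of these data known, and each was matched to its Ensembl identifier through GENCODE M21, a gene annotation of the mouse genome build GRCm38. All 9 were found among the 53801 mouse genes with a value in every clone, and all 9 passed the filter on low values (0.5 TPM or more on average over the clones) that left 17823 genes in the comparison. MIN6 is a mouse insulinoma line used as a model of the β cell.

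Each clone grew from 1 cell of a MIN6 line that expresses the nuclease Cas9, after infection with a lentivirus that carries a guide RNA (gRNA) and selection with puromycin, so all 6 share Cas9, the virus and the selection. The 3 control clones carried a gRNA against an intron of Snd1, labelled Intron 2. The 3 Snd1 KO clones carried 1 of 2 gRNAs against exon 2 of Snd1, which encodes a transcriptional coregulator with nuclease and Tudor domains, and the question was whether loss of Snd1 alters gene expression in these cells. A single library was made per clone, so genotype was compared over clones. The study's supplement places its clones KO1 and KO2 under the first guide and KO3 under the second, with a large deletion in KO2. That these numbers are those of the sequenced Snd1 KO replicates was assumed. The Snd1 KO clones thus differ in guide and edit, which cannot be told apart from other differences between clones. The limma p-values set the difference between genotypes against the spread between clones, pooled over both genotypes and drawn toward a trend over all genes. The exact permutation p-values come from relabelling the clones.

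The β cell factors bind DNA at the insulin gene and at each other's genes, and they act as a network in which several members keep the others expressed. Some open chromatin early in the pancreas and are shared with other endodermal tissues, some select the β cell over the other endocrine cells, and MAFA is acquired late, as the cell matures. In β cells that fail in diabetes, several of them are lost from the nucleus.

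All 9 genes were expressed in every Snd1 KO clone, and none of them passed the call of an adjusted p-value under 0.05 and a 2-fold change. Neurod1 showed the difference with the smallest p-value of the 9, at 653 ± 87.3 TPM in Snd1 KO against 379 ± 21.8 in control (SD, n = 3 clones each), a log2 fold change of 0.78 (SE 0.137). Rfx6, Pax6, Isl1 and Nkx2-2 had higher means in Snd1 KO as well, with overlap between the groups for Rfx6 and Nkx2-2, whereas Pdx1, Nkx6-1 and Foxa2 differed by less than the spread between clones of 1 genotype. Mafa varied more between clones of the same genotype than between genotypes.

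TPM corrects read numbers for gene length and sets the total of every clone to 1000000. Snd1 itself, the targeted gene, was at 113, 119 and 112 TPM in the control clones and at 14.7, 57.1 and 19.9 TPM in the Snd1 KO clones, so the groups did not overlap. Even so, its log2 fold change of -2.11 (SE 0.452) had an adjusted p of 0.511 by limma and was not a call, which bears on what the absence of a call can show for the 9 genes. The values resolve into whole reads, with between 25865184 and 33055394 reads on genes per clone, and between 633 and 32871 reads on each of the 9 genes. With each read taken as independent, counting error was 3.97% of the value for Rfx6 in Control 2 and smaller for the other 8 genes. These read numbers exceed the number of reads per library that the study states, and if both mates of a pair were counted the error would be larger, which was not tested. Across all genes, 1 of 17823 was called by limma (Gm24966, named after its value was seen). The first principal component (40.3% of the variance) placed Control 3 at -12.9, on the side of Snd1 KO 2 (-35.1) and Snd1 KO 3 (-18.0). Snd1 KO 1 was at 2.74, the score nearest the centre, and Control 1 and Control 2 were at 30.3 and 33.0. The counts of members whose groups do not overlap are also given without single clones and without both Control 3 and Snd1 KO 1. Calls and the median of the 9 genes were recomputed without single clones, and the count at an unadjusted p under 0.05 was not.

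The identity of the line was checked on markers. The β cell hormones were abundant, with Ins2 between 11200 and 18600 TPM, Iapp between 22400 and 50200 TPM and Ins1 between 2060 and 11900 TPM over the clones. Slc2a2, the β cell glucose transporter, was at 160, 65.0 and 172 TPM in control and at 91.5, 40.5 and 32.8 TPM in Snd1 KO, with overlap (log2 fold change -1.27, adjusted p = 0.607). Hhex, the factor that defines δ cells, was at 0 in every clone, as was Ptf1a of acinar cells. Rbp4, also a δ cell marker, was at 40.0, 32.7 and 23.9 TPM in control and at 1.07, 10.1 and 8.29 TPM in Snd1 KO, lower in every Snd1 KO clone (log2 fold change -2.44, adjusted p = 0.56), while the other 3 of the 4 δ cell markers did not pass the filter. Glucagon (Gcg) mRNA was at 55.2 to 1100 TPM, highest in Snd1 KO 1. The 5 α cell markers summed to between 14400 and 20300 TPM in control and to between 3090 and 8920 TPM in Snd1 KO, most of it Ttr, which β cells express too. Of the 5 duct markers, Krt7 reached 72.9 TPM in Control 3 and 44.1 to 87.2 TPM in Snd1 KO against at most 3.55 TPM in the other control clones, and the remaining 4 stayed under 1 TPM. The part of Rbp4, Ttr and Krt7 in the results below was not tested. In bulk RNA, fewer cells with a transcript and less transcript per cell cannot be told apart.

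**Figure D1:**
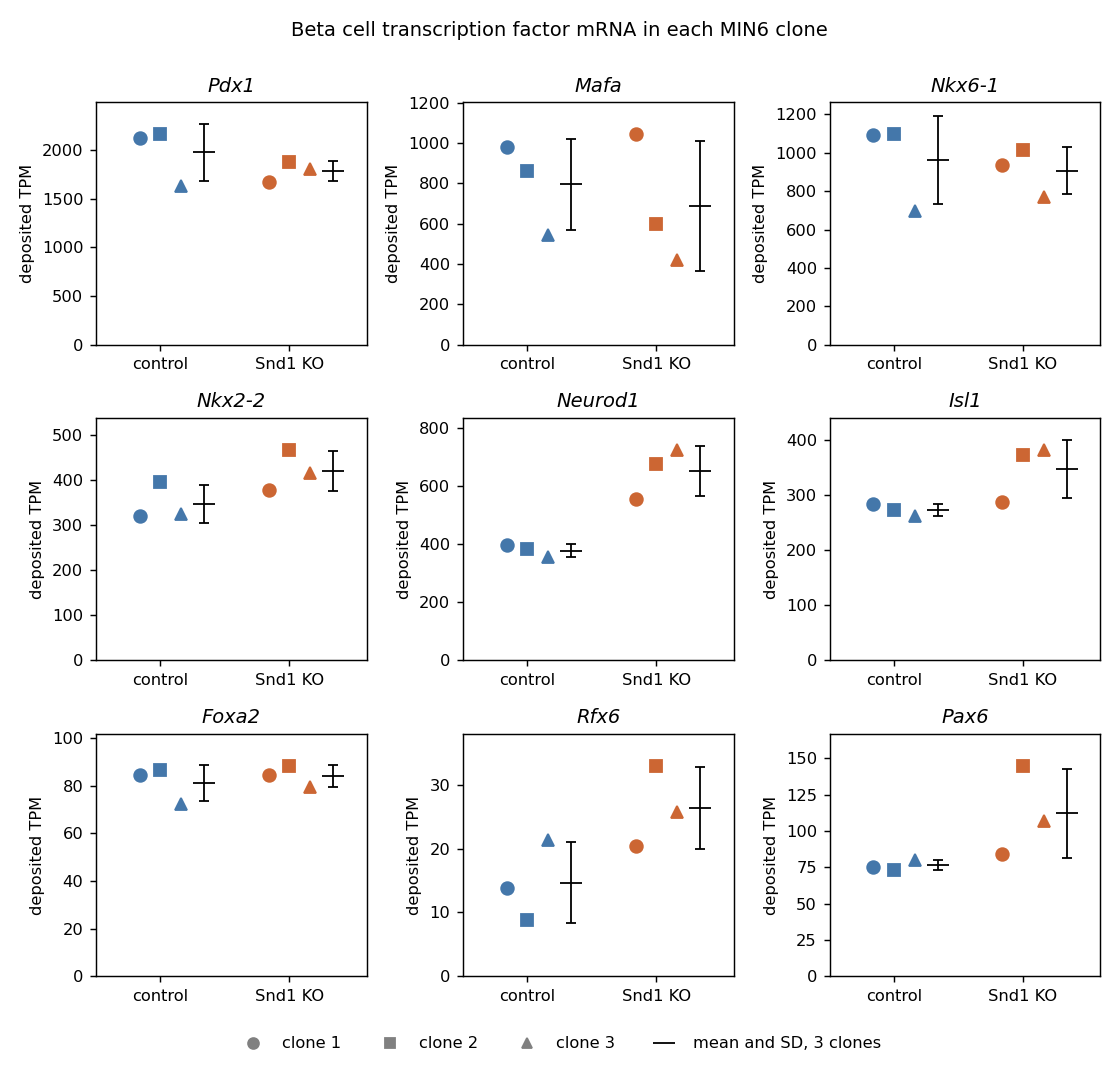
Deposited TPM (vertical axes, starting at 0) of the 9 genes in each of the 3 control clones (blue) and 3 Snd1 KO clones (orange), with the mean and SD of each genotype beside the points. Only Neurod1, Isl1 and Pax6 have every Snd1 KO clone above every control clone; shapes give the clone number, which pairs no clones.

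The bases just before the start of Neurod1, Isl1 and Pax6 are shown because these 3 genes had groups that did not overlap in deposited TPM. The sequences are from the RefSeq promoter table (build GRCm38.p6) and stop before the first annotated exon. The Neurod1 stretch lies at chr2:79456752-79456886 on the minus strand, Isl1 at chr13:116309690-116309938 on the minus strand and Pax6 at chr2:105668646-105668895 on the plus strand. Capitals mark the E-box CANNTG, the homeodomain core TAAT, the box CCAAT and the cyclic AMP response element TGACGTCA. These, the shorter core TGACG of that element and the TATA box TATAAA, both left in lower case where they stand alone, were searched on both strands, and their letters were chosen after the genes were known.
Neurod1: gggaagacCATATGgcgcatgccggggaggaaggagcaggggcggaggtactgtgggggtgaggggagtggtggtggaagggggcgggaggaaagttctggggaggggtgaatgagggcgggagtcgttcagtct
Isl1: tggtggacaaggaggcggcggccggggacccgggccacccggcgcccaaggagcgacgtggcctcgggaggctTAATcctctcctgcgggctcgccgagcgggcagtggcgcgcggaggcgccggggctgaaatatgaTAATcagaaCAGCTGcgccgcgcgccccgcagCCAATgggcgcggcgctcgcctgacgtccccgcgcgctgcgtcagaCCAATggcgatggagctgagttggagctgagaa
Pax6: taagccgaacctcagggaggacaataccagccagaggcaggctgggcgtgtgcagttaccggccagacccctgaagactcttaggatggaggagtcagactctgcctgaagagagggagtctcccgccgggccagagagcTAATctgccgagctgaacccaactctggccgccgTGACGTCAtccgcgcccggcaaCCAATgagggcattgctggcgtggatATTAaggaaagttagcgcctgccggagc

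Neurod1 held 1 E-box and none of the other 5 motifs in 135 bases. Of all 32851 windows in the table, cut to the same length, 45.6% held an E-box and 41.1% a homeodomain core. Isl1 held 1 E-box, 2 homeodomain cores and 2 CCAAT boxes in 249 bases, where 66.1%, 54.8% and 33.8% of windows of that length held at least 1. It also held 2 such shorter cores, which 17.7% of windows had, and neither the full element nor a TATA box. Pax6 held the full cyclic AMP response element, which 1.55% of windows of 250 bases held, with 2 homeodomain cores and 1 CCAAT box. The 2 shorter cores found in Pax6 are those of the full element on its 2 strands. It held no E-box, which 66.2% of windows held, and no TATA box. A second RefSeq window of Pax6 left no bases before an annotated exon and is not shown. Such a match is a description of letters, not a bound site. RefSeq windows were found for 8 of the 9 genes.

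PDX1 and FOXA2 stand at the head of the network. Foxa2 encodes a pioneer factor that opens chromatin in endoderm and binds the Pdx1 gene. Its mRNA was at 84.6, 86.5 and 72.3 TPM in control and at 84.55, 88.5 and 79.4 TPM in Snd1 KO. The 6 values lay within 1.22-fold of each other, the narrowest range of the 9 genes, and the groups overlapped. The log2 fold change was 0.06 (SE 0.111, 95% interval -0.21 to 0.32, adjusted p = 0.914 by limma).

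Pdx1, the homeodomain factor required for the pancreas to form and for insulin transcription, was the most abundant of the 9. It was at 2122, 2164 and 1634 TPM in control and at 1670, 1873 and 1802 TPM in Snd1 KO. Both the highest and the lowest of the 6 values were control clones, so the groups overlapped. The means differed by a log2 fold change of -0.14 (SE 0.169, 95% interval -0.54 to 0.27, adjusted p = 0.845), and the lower bound of that interval lay short of a 2-fold fall. The log2 fold change was -0.08 without Control 1 and -0.07 without Control 2. It was -0.27 without Control 3, where both remaining control clones lay above all Snd1 KO clones.

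Among the NK homeodomain factors, Nkx6-1, which specifies β cells and holds down the α cell programme, was at 1095, 1098 and 699 TPM in control. In Snd1 KO it was at 936, 1012 and 772 TPM. Control 3 was the lowest of the 6 clones and the other control clones the highest, as for Pdx1. Its log2 fold change of -0.07 (SE 0.219, adjusted p = 0.952) was within the spread between clones, and its sign turned when Control 1, Control 2 or Snd1 KO 3 was left out.

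Nkx2-2, which represses genes of the other endocrine cells and is needed for β cells to form, leaned the other way. Its values were 321, 396 and 325 TPM in control and 379, 468 and 416 TPM in Snd1 KO. The groups overlapped because Control 2 lay above Snd1 KO 1. The log2 fold change was 0.28 (SE 0.138, 95% interval -0.05 to 0.61, adjusted p = 0.614). An unstranded library cannot separate its reads from those of the antisense gene Nkx2-2os, which shares 278 bases with its exons and was at no more than 1.06 TPM in any clone.

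Isl1, a LIM homeodomain factor of all islet endocrine cells that binds the insulin enhancer together with NEUROD1, was tight in control at 284, 273 and 262.5 TPM. In Snd1 KO it was at 287, 372 and 382 TPM. The groups did not overlap, but Snd1 KO 1 exceeded the highest control clone only 1.01-fold, while the other Snd1 KO clones stood clear of it. Its log2 fold change was 0.33 (SE 0.139, 95% interval 0.0013 to 0.67), with a limma p of 0.0493 unadjusted and 0.607 adjusted over all genes, and an exact permutation p of 0.1.

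Pax6, the paired homeodomain factor that keeps insulin and secretory genes on and ghrelin off, had much the same shape. It was at 75.5, 73.4 and 80.2 TPM in control and at 84.4, 145 and 107 TPM in Snd1 KO. Every Snd1 KO clone lay above every control clone, by 1.05-fold for the nearest pair, and Snd1 KO 2 was the highest. The log2 fold change was 0.51 (SE 0.195, adjusted p = 0.607 by limma and exact permutation p = 0.1), with 0.31 when Snd1 KO 2 was left out and 0.70 when Snd1 KO 1 was.

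Neurod1, whose promoter stretch held 1 E-box, encodes the basic helix-loop-helix factor that binds the E-box of the insulin promoter. It was at 398.5, 382 and 355 TPM in the control clones, which lay within 1.12-fold of each other. It was at 556, 676 and 726 TPM in the Snd1 KO clones. The groups stood apart, with the lowest Snd1 KO clone 1.40-fold above the highest control clone, the widest gap of the 3 genes whose groups stood apart. On the log2(TPM + 1) scale 90.7% of its sum of squares over the 6 clones lay between the genotypes, against a median of 17.1% over all genes tested. Its limma p-value was 0.000898 and 0.372 after adjustment over all genes, and the 95% interval ran from 0.45 to 1.10. The exact two-sided permutation test gave p = 0.1, the smallest that 3 against 3 clones allow. The 6 members other than Neurod1, Isl1 and Pax6 had an exact permutation p of 0.2 to 0.8. Leaving out 1 clone at a time gave log2 fold changes of 0.69 to 0.89. Of its 2729 exonic bases, 201 are shared with Cerkl and 154 with Gm26755, which were at no more than 6.94 and 1.06 TPM.

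Rfx6, a winged-helix factor upstream of islet endocrine fate, was the least abundant of the 9 and the most variable. It was at 13.8, 8.79 and 21.4 TPM in control and at 20.4, 33.0 and 25.75 TPM in Snd1 KO. Control 3 lay above Snd1 KO 1, so the groups overlapped, although the means differed 1.80-fold. The difference on the log2 scale was 0.86 (SE 0.323, 95% interval 0.09 to 1.63, adjusted p = 0.605). It ranged from 0.56 without Control 2 to 1.16 without Control 3.

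Mafa, the basic leucine zipper factor that drives insulin transcription in mature β cells, was at 979.9, 860.5 and 545 TPM in control. In Snd1 KO it was at 1045, 598 and 419 TPM. Snd1 KO clones were both the highest and the lowest of all 6, a 2.50-fold range, so genotype did not order the values. The log2 fold change was -0.27 (SE 0.372, 95% interval -1.16 to 0.62, adjusted p = 0.862), and it ran from -0.62 without Snd1 KO 1 and -0.52 without Control 3 to 0.03 without Snd1 KO 3.

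**Figure D2:**
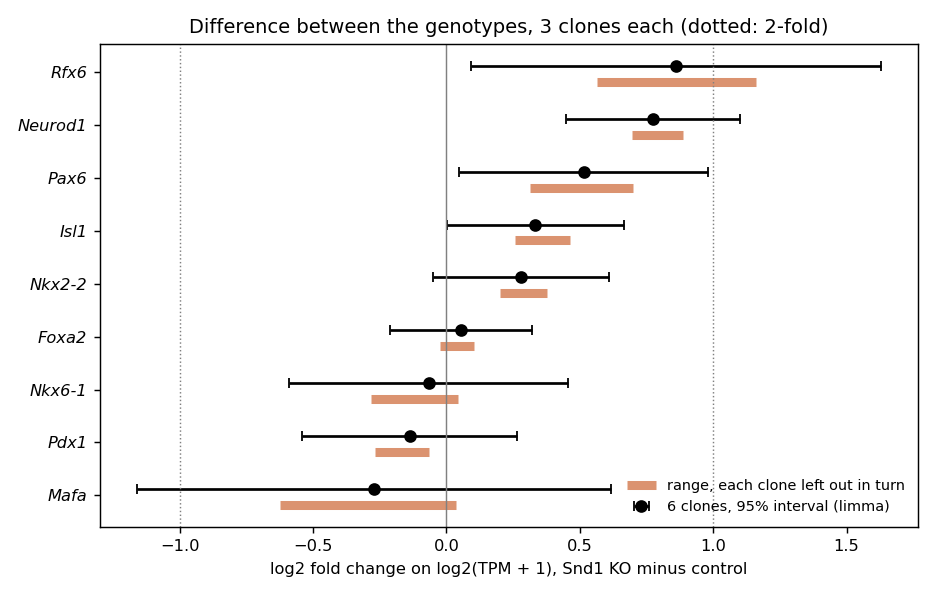
Log2 fold change of Snd1 KO minus control on the log2(TPM + 1) scale (horizontal axis) for the 9 genes. Points and black bars are the limma estimate and its 95% interval over 6 clones, and orange bars are the range when each clone is left out in turn; Rfx6, Neurod1, Pax6 and Isl1 have intervals above 0, and none of the points passes a 2-fold change (dotted lines).

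Over the list, 0 of the 9 genes were called at an adjusted p under 0.05 and 2-fold, where the share of all genes called was 0.00561%. At an unadjusted p under 0.05, 4 of the 9 passed (Neurod1, Rfx6, Pax6 and Isl1), each higher in Snd1 KO, where 7.96% of all genes did. In deposited TPM, every Snd1 KO clone lay above every control clone for 3 of the 9 (Neurod1, Isl1 and Pax6), against 9.69% of all genes. The reverse order was seen for 0 of the 9, against 4.03% of all genes. Median ratio scaling gave size factors of 0.926 for Control 3 and 1.011 for Snd1 KO 1. With values divided by these, Pax6 was higher in Control 3 than in Snd1 KO 1, so its groups overlapped. Isl1 was nearly equal in both clones, and Neurod1 stayed apart. The shares of all genes were not recomputed on that scale. The median log2 fold change was 0.28 over the 9 and 0.04 over all genes tested, and 6 of the 9 were positive, compared with 57.3% of all genes. These counts describe the list and give no test of it.

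Leaving out some of the clones changed the counts of groups that do not overlap. Without Control 1, Snd1 KO 2 or Snd1 KO 3, 3 of the 9 lay above every control clone (14.6%, 13.3% and 14.3% of all genes), and 4 did without Control 2 (12%). Without Snd1 KO 1, 5 of the 9 lay above every control clone, with Nkx2-2 and Rfx6 added, where 22.6% of all genes did. Without Control 3, 4 of the 9 were higher (17.2% of all genes), and Pdx1 and Nkx6-1 were lower in every Snd1 KO clone (17.8% of all genes). With both left out, 5 of the 9 were higher and 3, namely Pdx1, Nkx6-1 and Mafa, were lower, but with 2 clones a group 31.6% and 29.4% of all genes stood apart in these directions. Giving each clone a weight by its agreement with its group, which set Control 3 to 0.279 and Snd1 KO 1 to 0.286 and raised Snd1 KO 3 to 3.91, called Rfx6 at a log2 fold change of 1.17 (adjusted p = 0.0269 by limma), where 5.02% of all genes were called. At the same weights and with no fold limit, 5 of the 9 had an adjusted p under 0.05, against 12.1% of all genes. These were Neurod1 (0.87), Isl1 (0.43), Pax6 (0.555) and Rfx6, which were higher in Snd1 KO, and Mafa (-0.93), which was lower.

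**Figure D3:**
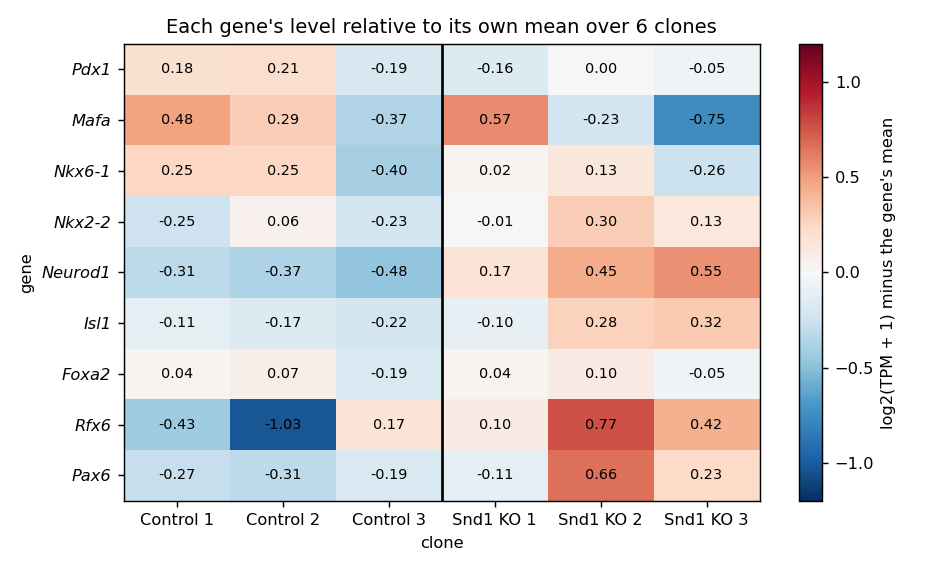
Level of each gene in each clone as log2(TPM + 1) minus its own mean over the 6 clones, in colour and as printed values, with control clones left of the black line. Neurod1 changes sign at the line; Pdx1, Nkx6-1 and Mafa are low in Control 3 and high in the other control clones, and Rfx6 and Pax6 peak in Snd1 KO 2.

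The spread over the 6 clones divided the genes in another way. Rfx6 spanned 3.76-fold from its lowest to its highest clone, Mafa 2.50-fold and Neurod1 2.04-fold, and these 3 of 9 spanned at least 2-fold, as did 20.5% of the 11368 genes that averaged 5 TPM or more. The median span of the 9 was 0.65 on the log2 scale, against 0.58 over those genes. In deposited TPM, the clone with the lowest value was Control 3 for Pdx1, Nkx6-1, Neurod1, Isl1 and Foxa2. The median ratio size factor was 0.926 in Control 3 and 1.008 to 1.044 in the other clones, so TPM ran low in Control 3 for genes in general. With values divided by these factors, none of these genes was lowest in Control 3. The share of the sum of squares between genotypes exceeded that within them for 5 genes, namely Neurod1 (90.7%), Isl1 (60.1%), Pax6 (56.3%), Rfx6 (54.3%) and Nkx2-2 (52.9%), and was 19.6% for Pdx1, 8.22% for Foxa2, 7.94% for Mafa and 1.80% for Nkx6-1. The median share over all genes tested was 17.1%. How many of all genes had the larger share between genotypes was not counted, so the 5 have no background to be read against.

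Ratios between the genes within a clone do not depend on how the clones are scaled to each other. The log2 ratio of Neurod1 to Isl1 in deposited TPM was 0.49, 0.49 and 0.44 in the control clones and 0.96, 0.86 and 0.93 in the Snd1 KO clones. Its SD was 0.03 in control, the smallest of the 36 pairs and shown for that reason after the values were seen, and 0.05 in Snd1 KO, with an offset of 0.44 between the genotypes. The control SD of the other 35 pairs was 0.077 to 1.01. Against Pdx1, Neurod1 was at -2.41, -2.50 and -2.20 in control and at -1.59, -1.47 and -1.31 in Snd1 KO, an offset of 0.92. The groups stood apart in 8 of the 36 pairs, of which 5 involved Neurod1 (with Pdx1, Nkx6-1, Nkx2-2, Isl1 and Foxa2) and the other 3 set Nkx2-2, Isl1 or Pax6 against Pdx1. The exact two-sided permutation p of each of the 8 was 0.1, the smallest possible, and 0.415 after Benjamini-Hochberg adjustment over the 36 pairs. Since the groups stood apart for Neurod1, Isl1 and Pax6 themselves, ratios of these 3 genes largely restate that on another scale and are not separate evidence. No share over ratios of other genes was computed, so the count has no background to be read against. These pairs were computed after the values of the genes had been seen.

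**Figure D4:**
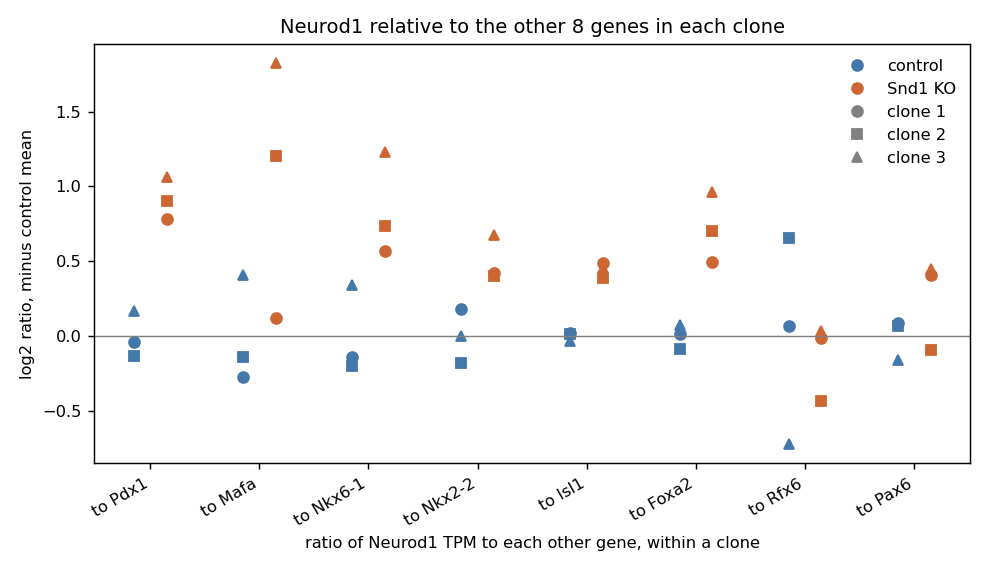
Log2 ratio of Neurod1 to each of the other 8 genes within a clone (vertical axis), set to 0 at the mean of the control clones, for control (blue) and Snd1 KO (orange). Ratios to Pdx1, Nkx6-1, Nkx2-2, Isl1 and Foxa2 separate the genotypes, and those to Mafa, Rfx6 and Pax6 overlap.

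In control, Pdx1 was the highest of the 9 at 1974 ± 295 TPM, above Nkx6-1 (964 ± 230) and Mafa (795 ± 225), which overlapped each other. Neurod1 (379 ± 21.8) and Nkx2-2 (347 ± 42.2) came next and overlapped, followed by Isl1 (273 ± 10.7), by Foxa2 (81.15 ± 7.69) and Pax6 (76.35 ± 3.45), which overlapped, and by Rfx6 (14.7 ± 6.34; SD, n = 3 for each). This order depends on the length used. The deposited TPM divides by the summed exons of all annotated transcripts, so a gene with many transcripts is set low. Pax6, with 26 transcripts, has 45607 summed bases but 11694 when each exonic base is counted 1 time. On the latter scale Isl1 (295 ± 10.2 TPM) and Nkx2-2 (293 ± 36.0) ranked above Neurod1 (237 ± 12.6), and Pax6 (186 ± 8.92) above Foxa2 (125 ± 11.5). On that scale, 99.6% of 17796 genes were below Pdx1 in control, 92.5% were below Foxa2 and 69.3% below Rfx6.

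In Snd1 KO the order was different in its middle part. On the deposited scale Neurod1 ranked 4, 5 and 4 of the 9 in the control clones and 4, 3 and 3 in Snd1 KO 1, 2 and 3, and Mafa ranked 3 in every control clone and 2, 4 and 4 in the Snd1 KO clones. With each base counted 1 time, Neurod1 ranked 6 in every control clone and 4, 3 and 3 in the Snd1 KO clones, and Mafa ranked 3 in every control clone and 2, 6 and 6 in the Snd1 KO clones. Pdx1 was first and Rfx6 last in all 6 clones on both scales.

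**Figure D5:**
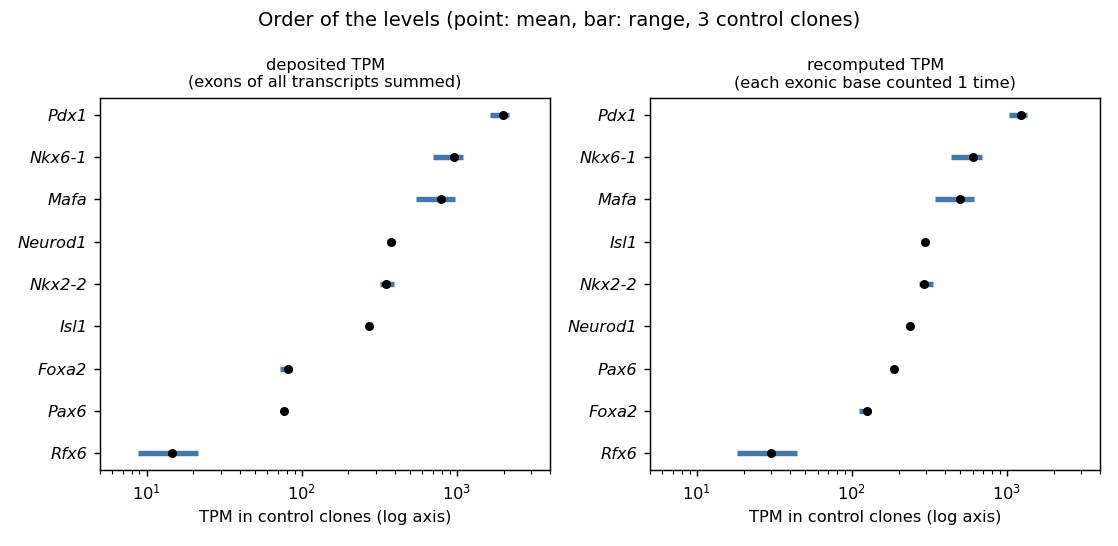
Level of the 9 genes in the 3 control clones (point, mean; bar, range; log axis) by the deposited TPM at left and by TPM recomputed with each exonic base counted 1 time at right. Pdx1 is highest and Rfx6 lowest on both, while Isl1 moves above Neurod1, and Pax6 above Foxa2, at right.

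Genes whose pattern over the 6 clones was most like that of a member were sought for the 3 members that spanned at least 2-fold, among 2325 genes that did too. The measure was the root mean square difference of centred log2(TPM + 1) over 6 clones. For Neurod1 the nearest was Pgm2l1, with a difference of 0.06, at 4.86, 4.42 and 4.67 TPM in control and 7.10, 9.58 and 10.2 TPM in Snd1 KO. It was followed by 4930578M01Rik (0.12) and Gm45110 (0.13). For Mafa it was Maob, a monoamine oxidase (0.12), at 341, 325 and 175 TPM in control and 356, 207 and 174 TPM in Snd1 KO, then Snx11 and K230015D01Rik (0.15 each). For Rfx6 it was 5033430I15Rik (0.09), then Scarf2 and Gm11335 (0.10 each).

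Of 28 other islet transcription factors, 17 passed the filter and 0 were called in either direction, where 0.00561% of all genes were. At an unadjusted p under 0.05 by limma there were 0, against 7.96% of all genes. Insm1, a zinc finger factor of endocrine cells, and Prox1, a homeodomain factor of the pancreas, were the 2 of 17 that lay higher in every Snd1 KO clone, a count near the 9.69% of all genes that did. Insm1 was at 490, 507 and 563 TPM in control and 578, 635 and 615 TPM in Snd1 KO (log2 fold change 0.23, adjusted p = 0.614). Prox1 was at 40.7, 36.5 and 37.2 TPM against 42.5, 44.2 and 46.6 TPM (0.22, adjusted p = 0.607). The median of the 17 was 0.10.

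The proteins that work with the members, such as LDB1 with ISL1, the E proteins with NEUROD1, and the chromatin remodelers CHD4 and SMARCA4 with PDX1, were listed too. Of 27 tested, 0 were called, where 0.00561% of all genes were, and 0 had an unadjusted p under 0.05 by limma, against 7.96% of all genes. The median log2 fold change was 0.06, near the 0.04 over all genes tested. Ldb1 was at 22.7 to 29.1 TPM in control and 20.5 to 32.3 TPM in Snd1 KO. Crebbp, a histone acetyltransferase, was the 1 of 27 whose groups did not overlap, where 9.69% of all genes lay higher and 4.03% lower in every Snd1 KO clone. It was at 15.0 ± 0.694 TPM in control and 17.8 ± 1.77 in Snd1 KO (SD, n = 3), with a log2 fold change of 0.23 and adjusted p = 0.646.

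Of 25 tested genes known as targets of the members, 0 were called, 8 had an unadjusted p under 0.05, 5 lay higher and 2 lower in every Snd1 KO clone. Over all genes these shares were 7.96%, 9.69% and 4.03%. The median log2 fold change of the 25 was 0.21, against 0.04 over all genes, and no test of the list was made. Slc30a8, the zinc transporter of the insulin granule, was at 215, 191 and 744 TPM in control and 809, 1010 and 779 TPM in Snd1 KO (1.45, adjusted p = 0.585). Control 3 was near the Snd1 KO clones there. Ucn3, a marker of mature β cells and 1 of the 5 that lay higher, was at 41.6 TPM in Snd1 KO 1 and at 0.273 to 0.68 TPM in the other 5 clones. It had 317 reads in Snd1 KO 1, 5 in each other Snd1 KO clone, and 4, 3 and 2 in control. It passed the filter on low values only through Snd1 KO 1. Sytl4, a granule docking protein, was at 127 ± 25.7 TPM in control and 210 ± 37.7 in Snd1 KO (0.72, adjusted p = 0.568).

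The 2 targets that lay lower in every Snd1 KO clone were Ttr and Glp1r. Ttr, which encodes transthyretin, was at 17600, 20100 and 14100 TPM in control and 3800, 3030 and 8770 TPM in Snd1 KO, a log2 fold change of -1.88 (SE 0.433, adjusted p = 0.54). Glp1r, the receptor of the incretin GLP-1, was at 1070, 964 and 494 TPM in control and 432, 384 and 414 TPM in Snd1 KO, a log2 fold change of -0.96 (adjusted p = 0.568). The insulin genes themselves overlapped between the groups. Ins2 had a log2 fold change of -0.27 (SE 0.289, adjusted p = 0.813), and Ins1 ranged from 2060 to 11900 TPM with both ends in Snd1 KO clones.

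Of 19 factors of other lineages, 7 passed the filter and 0 were called, where 0.00561% of all genes were. Under 1 TPM in every clone were 11, and 6 of these were at 0 throughout, among them Hhex and Ptf1a. Irx1 and Pou3f2 were the 2 of 7 that lay higher in every Snd1 KO clone, as did 9.69% of all genes. Both passed the filter only through Snd1 KO clones. Bhlha15, a factor of secretory acinar cells, was at 28.6 to 121 TPM. Irx1, an islet homeobox gene, was at 0, 0 and 0.0547 TPM in control and at 0.105, 1.58 and 3.30 TPM in Snd1 KO. Pou3f2, a neural factor, was at 0 in every control clone and at 3.02 TPM in Snd1 KO 1 against 0.036 and 0.0672 TPM in the other Snd1 KO clones. Irx1 had 1, 2, 29 and 65 reads in the 4 clones above 0, and Pou3f2 had 87 reads in Snd1 KO 1 and 1 and 2 reads in the other Snd1 KO clones.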

How the data were processed

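RNA of 6 clonal MIN6 lines (3 control, 3 Snd1 KO, 1 library each) was sequenced by the authors as paired ends and processed on the Genialis platform. The submitters' processing notes name FastQC, Trimmomatic, HISAT2, HTSeq and DESeq2, with the build mm10 and without versions or roles. The authors deposited TPM per gene, 1 value per gene and clone; no count table was used here.

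Gene identifiers were matched to GENCODE M21 (53706 of 53801 mouse genes); 92 ERCC and 7 SIRV spike-in entries (at most 1.02 TPM) were left out. TPM multiplied by the summed exon length of all transcripts gave whole reads (within 0.01) in all 6 clones for 91.7% of 14851 genes, all 9 members included; other genes were rounded. These reads gave the depth (25865184 to 33055394 per clone), and TPM was recomputed from them with each exonic base counted 1 time. Log2(TPM + 1) of genes averaging 0.5 TPM or more was compared with limma 3.58.1 (lmFit, eBayes with trend) in R 4.3.3, Benjamini-Hochberg adjusted over 17823 genes, and called at an adjusted p under 0.05 and 2-fold. A fold change on this scale understates that of low genes. Exact permutation tests and plots used Python 3.11.15 with scipy 1.17.1 and matplotlib 3.10.9. The fit was tested on simulated data.

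The members and all gene lists were chosen with earlier results of these data known. Besides the members, the text names Snd1, up to 3 genes per list and direction with the largest differences among those whose groups do not overlap, and the 3 genes most like each member spanning 2-fold; Ldb1, Ins1, Ins2, Iapp, Krt7, Gcg, Bhlha15 and the other markers were named from the lists after their values were seen. Some genes of the lists are not reported here. Alternatives were a pseudocount of 0.1, no filter, a filter at 5 TPM on average, quantile normalization, median ratio scaling, a total without the insulin and mitochondrial genes, no trend, clone quality weights, a replicate block, leaving out each clone, each exonic base counted 1 time, voom on recovered reads, and other call limits. Counts of members whose groups do not overlap without some clones were added after the data were seen.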

Additional observations from a re-analysis of the deposited data

How the results depend on the processing

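Of 153 values of the 9 genes under the alternatives, 146 kept their direction and their side of the threshold, 6 changed sign and 1, Rfx6, became a call. The sign changed for Foxa2 (-0.068 with clone quality weights and -0.025 without Control 3), for Nkx6-1 (0.041 without Control 1, 0.043 without Control 2 and 0.045 without Snd1 KO 3) and for Mafa (0.034 without Snd1 KO 3). Clone quality weights called 1 of the 9, Rfx6 (1.17), and 895 of all genes against 1 in the comparison reported. Without a filter, without the trend, with the replicate block and by voom 0 genes were called, without 1 clone 0 to 1, and at an adjusted p under 0.1 there were 2; the cause was not tested. At an unadjusted p under 0.05, limma gave 1419. Over the fits without 1 clone, the log2 fold change ran from 0.26 to 0.47 for Isl1, from 0.20 to 0.38 for Nkx2-2, from -0.27 to -0.07 for Pdx1, from -0.28 to 0.045 for Nkx6-1, from -0.62 to 0.034 for Mafa and from -0.025 to 0.10 for Foxa2, and the median of the 9 genes from 0.20 to 0.35. Genes above control in every clone numbered 3 to 5 of 9 without 1 clone (12% to 22.6% of all genes) and 5 without Control 3 and Snd1 KO 1 (31.6%). Where 1 control or Snd1 KO clone was left out, the spread was pooled over both genotypes.

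Control and Snd1 KO clones share only a number. The correlations of deviations of same-numbered clones were 0.12, -0.20 and -0.11, and with the replicate block the adjusted p of Neurod1 was 0.694 (log2 fold change 0.78) and 0 members were called. Scaling moved the median of all genes by at most 0.055 on the log2 scale. The differences of Pdx1 and Foxa2 were within the spread between clones; effects of depth were not tested.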
